A study of Canis lupus familiaris with 18 samples.

Results

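The integrin subunits described here were chosen by gene symbol, as a list of 10 members: ITGA9, ITGA4, ITGA6, ITGA7, ITGAV, ITGB1, ITGB3, ITGB4, ITGB5 and ITGB8. ITGA9 was put at the head of the list because its level was lower in French bulldogs, so its differences between breeds are given as a description, with no test. Of the 10 members, 9 were listed by symbol among 29993 genes, 16324 of which carry a symbol. ITGB4 was not analysed here. The tumors, from pet dogs, were labelled as prosencephalic high grade oligodendroglioma (HGO), and bulk RNASeq was performed on formalin-fixed, paraffin-embedded tissue. There were 18 libraries, 11 from French bulldogs and 7 from a comparison group of other breeds (4 boxers, 3 Boston terriers). The labels name no treatment, allele or normal brain sample, and age and sex were not used. The number of each library is the number in its title, so the boxers are 1, 3, 4 and 5 and the Boston terriers are 2, 6 and 7.

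Integrins are receptors on the cell surface that bind the extracellular matrix and other cells. Each is a pair of an alpha and a beta chain, and the pair decides which ligand is bound, while the short tails inside the cell attach to the actin skeleton through talin, kindlin and other adaptors. The alpha9 chain pairs with beta1 and binds tenascin-C, osteopontin and VCAM1, among others. In the brain, beta1 integrins with alpha6 bind laminin, and the alphaV chain pairs with several beta chains, of which beta8 activates latent TGF-beta.

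Between 8212452 and 13169880 counts per library fell on genes. Levels are given as CPM, the counts of a gene relative to the library total after TMM scaling. A level of 3 counts, taken as the smallest that this depth could show, corresponds to 0.228 to 0.365 unscaled CPM, and this limit covers counting error only. The lowest count of any member was 28, for ITGB3 in a French bulldog. French bulldog 6 stood apart from the other libraries, and its markers went against its tumor label. The summed level of 9 oligodendrocyte lineage markers was 158 CPM in French bulldog 6, with 2 markers at 0, against 1765 to 7412 CPM in the other 17 libraries. The summed level of 9 macrophage and microglia markers was 6780 CPM in French bulldog 6 and 50.0 to 309 CPM in the others. French bulldogs 2 and 8 share a case number in their labels, and their log2 CPM were the most alike of all pairs of libraries (Pearson's r across genes = 0.981, against at most 0.946 for any other pair). The study describes them with the same age, sex and tumor site, so they may come from 1 dog, although each n below counts them as 2 unless their sum or average is named. Results are therefore given with and without French bulldog 6, and with French bulldogs 2 and 8 summed, where these changed them. In bulk tissue, fewer cells of a type and less RNA per cell cannot be told apart.

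ITGA9 (ENSCAFG00000004820) was lower in French bulldogs than in the comparison group, and its level was highest in the Boston terriers. In the 11 French bulldogs, the lowest level was 32.8 CPM, the median was 87.3 CPM and the highest was 104.0 CPM. The boxers had 125, 188, 271 and 91.5 CPM (boxers 1, 3, 4 and 5). The Boston terriers had 208, 727 and 516 CPM (Boston terriers 2, 6 and 7). Of the 7 comparison libraries, 6 were above every French bulldog, and boxer 5 was within the French bulldog range. Of the 11 French bulldogs, 7 were below every comparison library. French bulldog 6 had the highest ITGA9 of the French bulldogs, beside its low oligodendrocyte lineage markers.

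**Figure D1:**
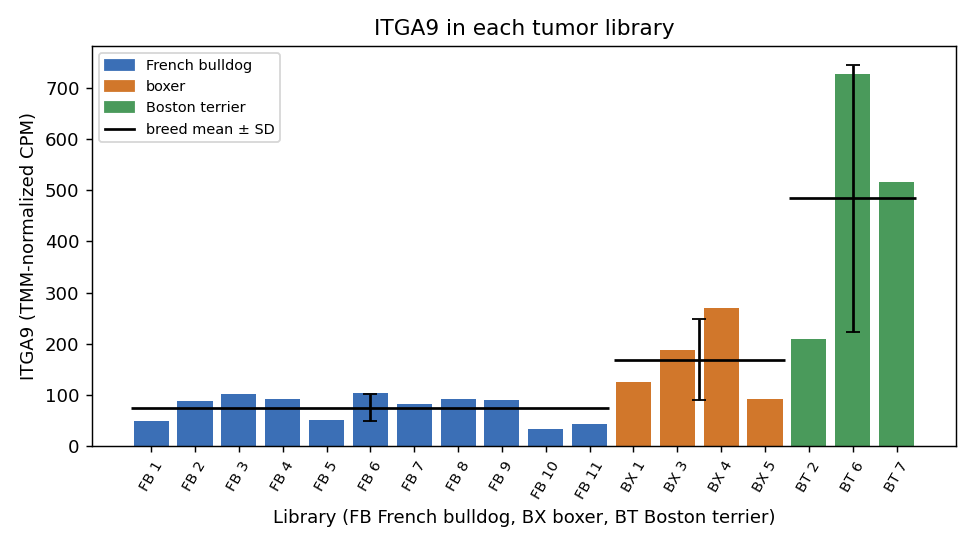
Level of ITGA9 (TMM-normalized CPM, y axis) in each of the 18 libraries (x axis). Bars are single libraries colored by breed, horizontal lines are breed means and error bars are SD. The 11 French bulldogs lie between 32.8 and 104.0 CPM, boxer 5 is within that range at 91.5 CPM, and Boston terrier 6 is the highest at 727 CPM.

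The mean level of ITGA9 was 75.3 ± 25.8 CPM in French bulldogs (SD, n = 11), 169 ± 78.8 CPM in boxers (SD, n = 4) and 484 ± 261 CPM in Boston terriers (SD, n = 3). The log2 fold change of ITGA9 in French bulldogs against the comparison group was -2.01 with a standard error (SE) of 0.36 in the edgeR fit. The difference did not rest on French bulldog 6, without which the log2 fold change of ITGA9 was -2.05 (SE 0.37). With French bulldogs 2 and 8 summed to 1 library, it was -2.04 (SE 0.38). Against the boxers alone the log2 fold change of ITGA9 was -1.16 (SE 0.31), and against the Boston terriers alone it was -2.67 (SE 0.34). The comparison libraries also carry index numbers of 2 series, 18 to 21 (boxers 1, 3 and 4 and Boston terrier 2) and 1 to 3 (boxer 5 and Boston terriers 6 and 7). Against these series the log2 fold change of ITGA9 was -1.39 (SE 0.28) and -2.55 (SE 0.42). ITGA9 was therefore lower in French bulldogs against each breed and each series of the comparison group. The index numbers of the French bulldogs run from 1 to 12, and the labels do not say which libraries were prepared together, so breed and preparation cannot be told apart.

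The order of the breeds for ITGA9 was French bulldog, boxer and Boston terrier, from lowest to highest. The difference between boxers and Boston terriers is also a description, since these are the libraries of the comparison group on which ITGA9 was chosen. The mean level in Boston terriers was 2.87-fold that in boxers, but boxer 4 was above Boston terrier 2, so the breeds overlapped. The log2 fold change of boxers against Boston terriers was -1.54 (SE 0.46) in the edgeR fit. It was -1.15 (SE 0.47) without Boston terrier 6 and -1.39 (SE 0.70) with the index series as a covariate.

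Among the other 8 members listed, no subunit passed the threshold of 0.05 on the adjusted p-value between French bulldogs and the comparison group in edgeR, where 1 of 16495 genes did (0.00606%), or in DESeq2, where 58 of 27192 genes did (0.213%). DESeq2 shares, here and below, are of all genes with any count in the libraries compared, whether or not they received an adjusted p. At an unadjusted p under 0.05, 2 of the 8 passed in edgeR, beside 10.6% of all genes. ITGAV was the 1 that was higher (7.02% of all genes were higher at that limit), and ITGB3 was the 1 that was lower (3.55% of all genes). The median log2 fold change of the 8 was 0.05, and that of all genes was 0.04. For none of the 9 members listed, ITGA9 included, were the French bulldog and comparison groups free of overlap, which was the case for 9 of 16495 genes (0.0546%).

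**Figure D2:**
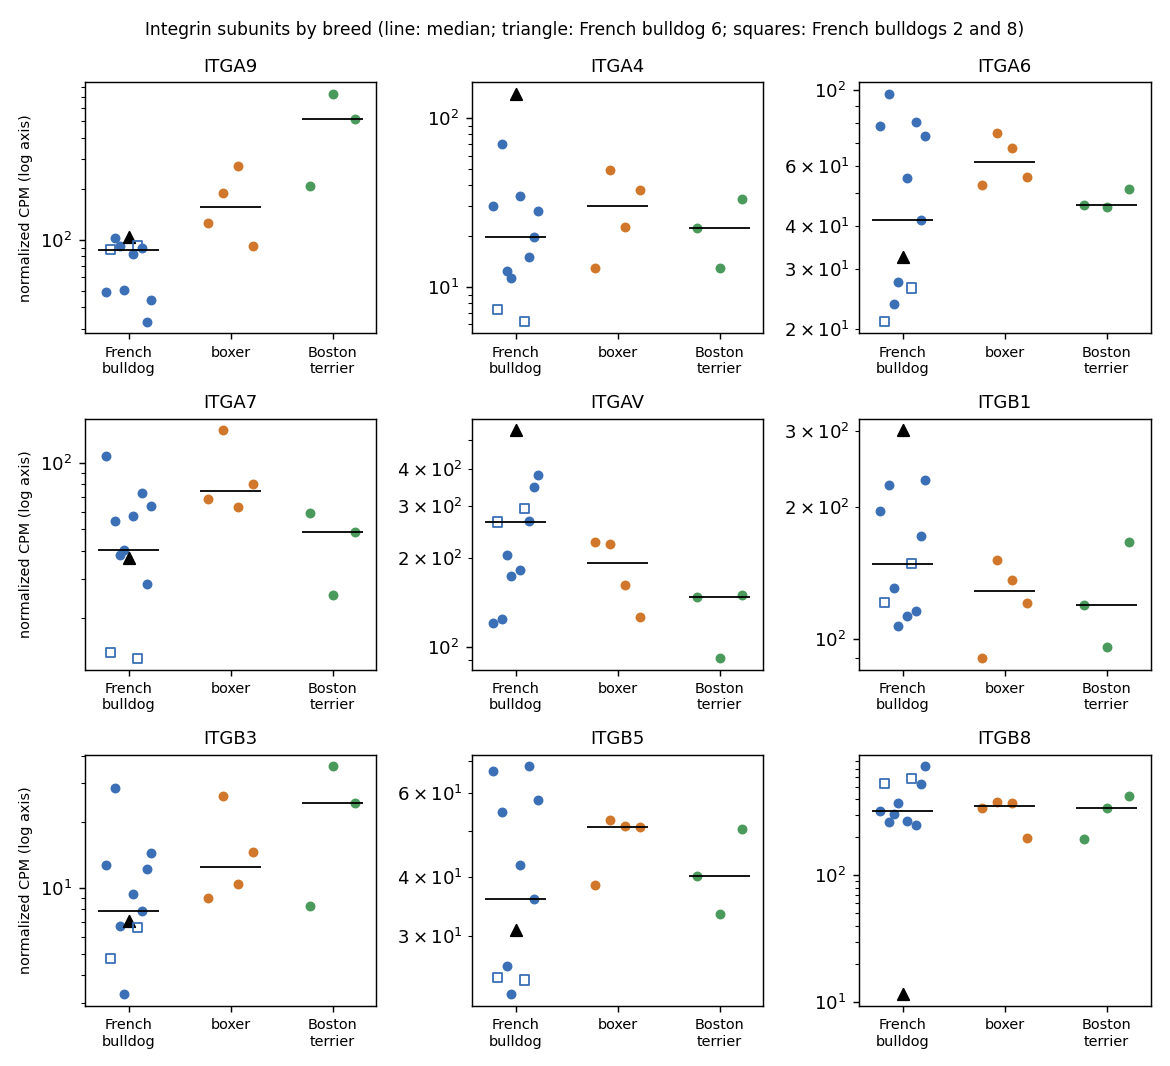
Level of each of the 9 integrin subunits (TMM-normalized CPM on a log y axis, with its own range in each panel) by breed (x axis). Points are libraries, lines are medians, the black triangle is French bulldog 6 and the open squares are French bulldogs 2 and 8; for ITGB8, French bulldog 6 is at 11.5 CPM and the next lowest library is at 193 CPM.

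The alpha chains that pair with beta1 were considered first. ITGA4 (ENSCAFG00000014175), the alpha4 chain, which is the nearest relative of alpha9 and binds VCAM1 and fibronectin, had a lowest level of 6.21 CPM, a median of 19.6 CPM and a highest of 139 CPM in the French bulldogs. The boxers had 13.0, 49.4, 22.7 and 37.3 CPM, and the Boston terriers had 22.5, 13.0 and 33.2 CPM. The comparison libraries thus fell inside the French bulldog range, whose ends were French bulldogs 8 and 6. The log2 fold change of ITGA4 in French bulldogs was 0.32 (SE 0.55, adjusted p = 0.877 in edgeR), with a 95% interval of -0.76 to 1.40. Without French bulldog 6 it was -0.19. The macrophage and microglia markers were also highest in that library. Their part in the ITGA4 level was not tested.

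ITGA6 (ENSCAFG00000013006), the alpha6 chain of laminin receptors, ranged from 21.0 to 97.6 CPM in French bulldogs, with a median of 41.6 CPM. The boxers had 52.8, 75.1, 67.6 and 55.8 CPM, and the Boston terriers had 46.2, 45.3 and 51.3 CPM. The French bulldogs spread to both sides of the comparison libraries, with 6 below all of them and 3 above all of them. ITGA6 had a log2 fold change of -0.15 (SE 0.30, adjusted p = 0.900 in edgeR), with a 95% interval of -0.74 to 0.44. ITGA7 (ENSCAFG00000000060), the alpha7 chain, a laminin receptor best known from muscle, ranged from 13.1 to 107 CPM in French bulldogs, with a median of 40.2 CPM. The boxers had 68.5, 140, 63.2 and 80.2 CPM, and the Boston terriers had 59.4, 25.2 and 48.9 CPM. The lowest levels of ITGA7 were those of French bulldogs 2 and 8, and the highest was that of boxer 3. ITGA7 had a log2 fold change of -0.53 (SE 0.38, adjusted p = 0.607 in edgeR), with a 95% interval of -1.27 to 0.20. Without boxer 3 it was -0.26 (SE 0.38).

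ITGB1 (ENSCAFG00000003821), the beta1 chain with which alpha4, alpha6, alpha7 and alpha9 all pair, ranged from 107 to 301 CPM in French bulldogs, with a median of 149 CPM. The boxers had 90.2, 151, 136 and 120 CPM, and the Boston terriers had 120, 95.8 and 167 CPM. The highest level of ITGB1 was again that of French bulldog 6, and 5 of the 11 French bulldogs were above every comparison library. In the edgeR fit the log2 fold change was 0.43 (SE 0.22, adjusted p = 0.497 in edgeR), with a 95% interval of -0.01 to 0.86, and it was 0.33 without French bulldog 6. The mean level of this shared beta chain was 169 ± 62.6 CPM in French bulldogs (SD, n = 11) and 126 ± 27.9 CPM in the comparison group (SD, n = 7), beside the lower ITGA9 of the French bulldogs.

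The alphaV chain and the beta chains that pair with it came next. ITGAV (ENSCAFG00000014597), the alphaV chain, ranged from 121 to 543 CPM in French bulldogs, with a median of 265 CPM. The boxers had 227, 223, 162 and 126 CPM, and the Boston terriers had 148, 91.5 and 150 CPM. Of the 11 French bulldogs, 6 were above every comparison library, while the lowest of them were among the comparison libraries. ITGAV had a log2 fold change of 0.71 (SE 0.29), with a 95% interval of 0.15 to 1.28, an unadjusted p = 0.0234 and an adjusted p = 0.433 in edgeR. French bulldog 6 was the highest of the 18 libraries, and without it the log2 fold change of ITGAV was 0.58 (unadjusted p = 0.0323 in edgeR). Without Boston terrier 6, which had the lowest level, it was 0.61 (unadjusted p = 0.0542 in edgeR). With French bulldog 6 left out and 2 and 8 summed, ITGAV was at 0.52 (unadjusted p = 0.0594 in edgeR). Against the boxers alone it was at 0.51 (0.174), and against the Boston terriers alone at 1.04 (0.0312). Against index series 18 to 21 it was at 0.47 (0.202), and against series 1 to 3 at 1.12 (0.0217).

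ITGB3 (ENSCAFG00000013735), the beta3 chain of the vitronectin receptor and of the platelet fibrinogen receptor, ranged from 3.28 to 28.5 CPM in French bulldogs, with a median of 7.86 CPM. The boxers had 9.02, 26.3, 10.4 and 14.6 CPM, and the Boston terriers had 8.28, 35.9 and 24.4 CPM. Of the 11 French bulldogs, 6 were below every comparison library, but French bulldog 3 was above all of them except Boston terrier 6. ITGB3 had a log2 fold change of -0.83 (SE 0.39), with a 95% interval of -1.60 to -0.07, an unadjusted p = 0.0457 and an adjusted p = 0.466 in edgeR. It was -1.11 without French bulldog 3 (unadjusted p = 0.00449 in edgeR), -0.76 without French bulldog 6 (0.0728) and -0.58 without Boston terrier 6 (0.155). With French bulldogs 2 and 8 summed, ITGB3 was at -0.77 (unadjusted p = 0.0680 in edgeR). ITGB3 and ITGA9 were both highest in Boston terrier 6, and in Boston terrier 7 both were above all boxers but boxer 3 for ITGB3.

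ITGB5 (ENSCAFG00000012477), another partner of alphaV in the binding of vitronectin, ranged from 22.6 to 68.4 CPM in French bulldogs, with a median of 35.9 CPM. The boxers had 38.5, 52.6, 51.1 and 50.9 CPM, and the Boston terriers had 40.1, 33.4 and 50.4 CPM. The French bulldogs lay on both sides, with 5 below and 4 above all comparison libraries. ITGB5 had a log2 fold change of -0.13 (SE 0.24, adjusted p = 0.890 in edgeR), with a 95% interval of -0.61 to 0.34.

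ITGB8 (ENSCAFG00000002519), the beta8 chain, which glial cells express, ranged from 11.5 to 729 CPM in French bulldogs, with a median of 324 CPM. The boxers had 342, 380, 371 and 197 CPM, and the Boston terriers had 193, 341 and 426 CPM. French bulldog 6 alone was low. Its 110 counts compare with at least 1822 in the other libraries, and its level was 30.6-fold below the median of the other 10 French bulldogs. The log2 fold change of ITGB8 over all libraries was 0.24 (SE 0.44, adjusted p = 0.889 in edgeR), with a 95% interval of -0.62 to 1.10, and without French bulldog 6 it was 0.40 (SE 0.25). The low ITGB8 in French bulldog 6 went with its low oligodendrocyte lineage markers and with an astrocyte marker sum of 22.8 CPM over 6 markers, against 523 to 5555 CPM in the other French bulldogs. Their part in the ITGB8 level was not tested.

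**Figure D3:**
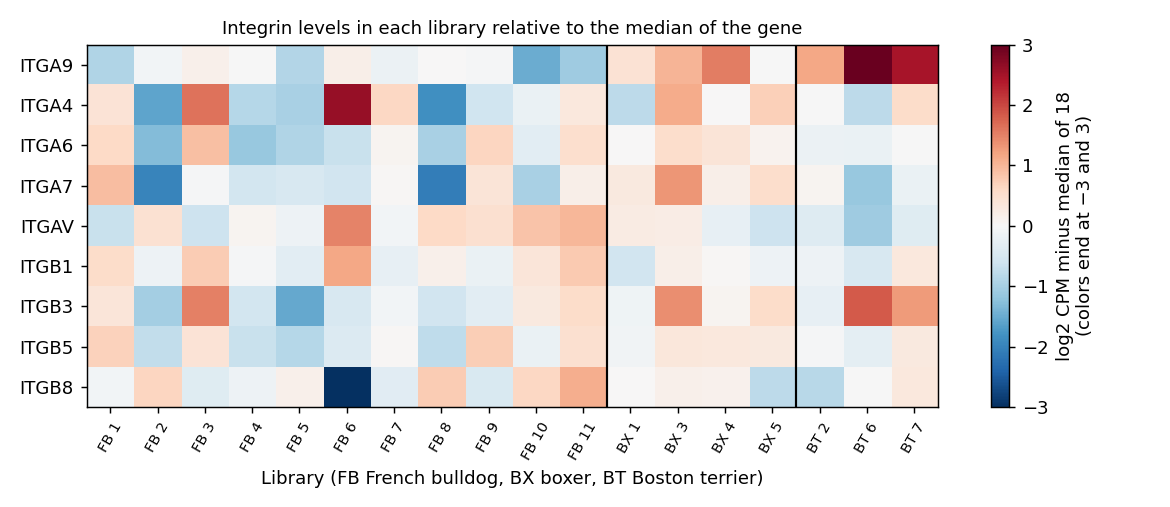
Log2 CPM of each integrin subunit (rows) in each library (columns) minus the median of the 18 libraries for that gene, with vertical lines between French bulldogs, boxers and Boston terriers. ITGA9 is below or near its median in the French bulldogs and highest in Boston terriers 6 and 7, while the extreme values of ITGA4, ITGAV, ITGB1 and ITGB8 are in French bulldog 6.

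French bulldog 6 was the highest or the lowest of the 18 libraries for 4 of the 9 members, namely highest for ITGA4, ITGAV and ITGB1 and lowest for ITGB8. French bulldogs 2 and 8 were alike within the family too. Both were below the other French bulldogs for ITGA4 (7.36 and 6.21 CPM) and ITGA7 (13.9 and 13.1 CPM). Both were high for ITGB8 (536 and 580 CPM), where only French bulldog 11 was higher. For ITGA9 they were at 87.3 and 92.9 CPM, in the upper part of the French bulldog range.

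**Figure D4:**
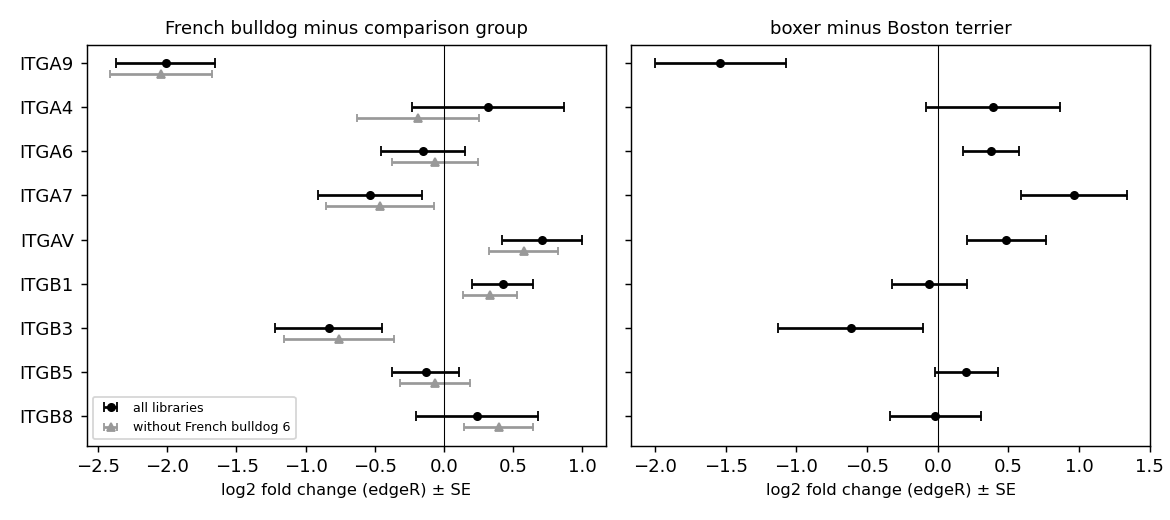
Log2 fold change (x axis, edgeR, error bars are SE) of the 9 integrin subunits (y axis) in French bulldogs against the comparison group (left, black with all libraries, grey without French bulldog 6) and in boxers against Boston terriers (right). ITGA9, at -2.01 and -1.54, is the lowest in both panels, and ITGA4 crosses 0 when French bulldog 6 is left out.

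Between boxers and Boston terriers, none of the 8 members other than ITGA9 passed the threshold on the adjusted p-value, as no gene did in edgeR (0 of 16633, 0%). DESeq2 called none of the 8, beside 39 of 25314 genes (0.154%). At an unadjusted p under 0.05, 1 of the 8 passed in edgeR, ITGA7, beside 6.23% of all genes. The log2 fold change of ITGA7 was 0.96 (SE 0.38, unadjusted p = 0.0300 and adjusted p = 0.795 in edgeR), the opposite sign to ITGA9. Without boxer 3 or Boston terrier 6 the count was 0, and without Boston terrier 2 or boxer 5 it was 2. The breeds did not overlap for 2 of the 9 members, ITGA6 and ITGA7, beside 7.31% of all genes. ITGA6 was 52.8 to 75.1 CPM in boxers and 45.3 to 51.3 CPM in Boston terriers, with a log2 fold change of 0.38 (SE 0.20, adjusted p = 0.805 in edgeR). For ITGA7 the boxers started at 63.2 CPM, just above the highest Boston terrier at 59.4 CPM. The log2 fold changes of ITGA4, ITGAV, ITGB1, ITGB3, ITGB5 and ITGB8 lay between -0.62 and 0.49.

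Chains that form a receptor together were compared across dogs. Levels were centred on the mean of each breed, French bulldog 6 was left out and French bulldogs 2 and 8 were averaged, which left 16 values. Of 8 known pairs, ITGA4 with ITGB1 had the highest correlation, with Pearson's r = 0.69 (permutation p = 0.00728, adjusted over the 8 pairs 0.0582) and Spearman's rho = 0.67 (permutation p = 0.0107, adjusted 0.0853). It was 0.66 without the 2 values farthest from the median of ITGA4, 0.62 within the French bulldogs and 0.87 within the comparison group. ITGAV with ITGB8 followed, with r = 0.59 (permutation p = 0.0310, adjusted 0.124) and rho = 0.61 (permutation p = 0.0232, adjusted 0.0929), and r was 0.57 without the 2 farthest values, 0.70 within the French bulldogs and 0.32 within the comparison group. ITGA9 and its partner ITGB1 had r = -0.11 (permutation p = 0.712, adjusted 0.850) and rho = -0.14 (permutation p = 0.610, adjusted 0.814), and r was -0.08 without the 2 farthest values, -0.30 within the French bulldogs and 0.17 within the comparison group. No pair passed the adjusted threshold.

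Genes with a symbol whose level varied like that of ITGA9 within breeds were then sought over 17 libraries without French bulldog 6, as a description. SANBR had r = 0.83, ANKRD39 0.82, GRIPAP1 0.79 and HK3, a hexokinase, 0.79. Higher values, up to 0.89, were those of 2 genes without a symbol. The lowest were HSPBAP1 at -0.84, HAUS2 at -0.79 and MDH1B at -0.79. Several of these depended on the centring and on the breeds. Without centring r was 0.055 for SANBR, 0.51 for ANKRD39, 0.069 for HSPBAP1, -0.17 for HAUS2 and -0.32 for MDH1B, and within the comparison group it was 0.44 for SANBR and -0.19 for HAUS2. Over all genes tested, r had its 5th percentile at -0.43 and its 95th at 0.45. The other integrin members had r between -0.26 (ITGA7) and 0.23 (ITGB3). All these values share the 17 libraries and their depth.

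The genes next to ITGA9 on its chromosome were compared with it, in the order that RefSeq gives for the assembly UU_Cfam_GSD_1.0. Of the 8 genes on each side, 12 were listed by symbol and 11 were tested. None of the 11 had an unadjusted p under 0.05 between French bulldogs and the comparison group in edgeR, and none an adjusted p under 0.05, with log2 fold changes from -0.67 (TRANK1) to 0.48 (MYD88) and a median of -0.11. GOLGA4, the nearest of those tested, had a log2 fold change of -0.11 (SE 0.16, adjusted p = 0.846 in edgeR).

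Of 16 other integrin subunits, 14 were listed and 13 tested, and none passed the adjusted threshold in edgeR or DESeq2. At an unadjusted p under 0.05, 2 were higher and 3 were lower in French bulldogs in edgeR, beside 7.02% and 3.55% of all genes. In DESeq2 0 of 14 were higher and 3 were lower, beside 6.41% and 3.21% of all genes, and no log2 fold change was above 0.32. DESeq2 was run with its default replacement of outlying counts, and whether it replaced those of French bulldog 6 was not examined. The median log2 fold change of the 13 in edgeR was -0.30, and that of all genes was 0.04. The higher ones, ITGAL and ITGB2, are the chains of LFA-1, an integrin of white blood cells. ITGAL was 648 CPM in French bulldog 6 and 3.82 to 24.2 CPM in the other 17 libraries, and ITGB2 was 360 CPM and 1.86 to 19.9 CPM. Their log2 fold changes of 2.67 (SE 1.09) and 2.34 (SE 1.07) were 0.07 and 0.01 without French bulldog 6, the library in which the summed macrophage and microglia markers were 6780 CPM. The sum of 8 T cell markers was also highest there, at 143 CPM, against 2.80 to 47.2 CPM in the other 17 libraries. The part of these markers in both results was not tested.

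**Figure D5:**
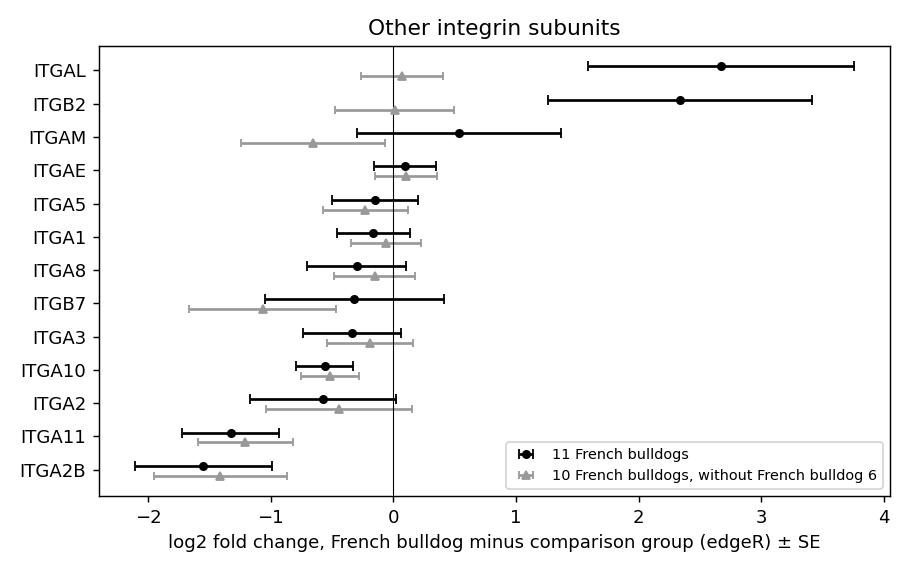
Log2 fold change (x axis, edgeR, error bars are SE) of the 13 other integrin subunits tested (y axis) in French bulldogs against the comparison group, with all 11 French bulldogs (black circles) and without French bulldog 6 (grey triangles). ITGAL and ITGB2 move from 2.67 and 2.34 to near 0, while ITGA11, ITGA2B and ITGA10 stay below 0.

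The lower ones were ITGA11, ITGA2B and ITGA10. ITGA11, the alpha11 chain of a collagen receptor, was 2.92 ± 1.74 CPM in French bulldogs (SD, n = 11) and 7.36 ± 3.84 CPM in the comparison group (SD, n = 7). Its log2 fold change was -1.32 (SE 0.40, unadjusted p = 0.00337 and adjusted p = 0.433 in edgeR), and 8 of the 11 French bulldogs were below every comparison library. ITGA2B, the platelet chain that pairs with beta3, was 1.52 ± 1.24 CPM in French bulldogs (SD, n = 11) and 4.47 ± 4.35 CPM in the comparison group (SD, n = 7), with a log2 fold change of -1.55 (SE 0.56, adjusted p = 0.433 in edgeR). Its lowest French bulldog level, 0.112 CPM, was under the limit of 3 counts. ITGA10, the alpha10 chain of another collagen receptor, had a log2 fold change of -0.56 (SE 0.23, adjusted p = 0.434 in edgeR). Without French bulldog 6 the log2 fold changes of ITGA11, ITGA2B and ITGA10 were -1.21, -1.41 and -0.51, each with an unadjusted p under 0.05. Between boxers and Boston terriers, their log2 fold changes were 1.24 (ITGA11), 0.79 (ITGA10) and -1.61 (ITGA2B), each with adjusted p = 0.795 in edgeR. All 3 had an unadjusted p under 0.05 in that fit, beside 6.23% of all genes. These values are a description, since the 3 genes were picked on a contrast that holds the same libraries. The Boston terriers, at 3.81 to 4.33 CPM for ITGA11 and 4.52 to 7.04 CPM for ITGA10, were within the French bulldog range. Boston terrier 6 had the highest ITGA2B, at 13.97 CPM, while the other comparison libraries had 1.74 to 5.22 CPM.

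Of 12 ligands of alpha9 beta1, all were listed and tested, and none had an unadjusted p under 0.05 in French bulldogs against the comparison group in edgeR (10.6% of all genes did), while 2 were higher at that limit in DESeq2, beside 6.41% of all genes. None passed the adjusted threshold by either tool. Their log2 fold changes ran from -0.98 for nephronectin (NPNT) to 1.58 for osteopontin (SPP1), with a median of 0.22 that became -0.18 without French bulldog 6. Without that library SPP1 was at 0.61 (SE 0.59). Tenascin-C (TNC), a matrix protein known from gliomas, had a log2 fold change of 0.05 (SE 0.60, adjusted p = 0.988 in edgeR). Of 17 other ligands tested in edgeR, among them laminins, none had an unadjusted p under 0.05, nor did any of 18 tested in DESeq2. These named ligands were picked after their values were seen.

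Of 28 adaptor and signalling proteins that bind integrin tails or act next to them, 26 were tested, and none passed the adjusted threshold in edgeR or DESeq2. At an unadjusted p under 0.05, none was higher and 2 were lower by either tool, beside 7.02% and 3.55% of all genes in edgeR. TNS3, tensin 3, which links beta chains to actin, was 317 ± 139 CPM in French bulldogs (SD, n = 11) and 527 ± 80.6 CPM in the comparison group (SD, n = 7). Its log2 fold change was -0.73 (SE 0.25, unadjusted p = 0.00906 and adjusted p = 0.433 in edgeR), and 9 of the 11 French bulldogs were below every comparison library. PXN, paxillin, a scaffold of focal adhesions, had a log2 fold change of -0.40 (SE 0.17, adjusted p = 0.434 in edgeR). Without French bulldog 6 these were -0.64 and -0.41. The median log2 fold change of the 26 was 0.06.

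Cell type markers were compared as summed levels beside these results. Without French bulldog 6, the sum of the oligodendrocyte lineage markers was 3780 ± 2018 CPM in French bulldogs (SD, n = 10) and 3185 ± 828 CPM in the comparison group (SD, n = 7). The highest sums were those of French bulldogs 2 and 8, at 7272 and 7412 CPM, without which the French bulldog mean was 2890 ± 837 CPM (SD, n = 8). In the same groups of 10 and 7, the sum of 7 mural cell markers was 186 ± 126 CPM and 250 ± 74.4 CPM, and 6 of the 7 had a log2 fold change below 0 (median -0.47), with no unadjusted p under 0.05 in edgeR. The sum of 6 astrocyte markers was 2553 ± 1550 CPM and 2463 ± 933 CPM. That of 4 myelin markers was 1678 ± 2209 CPM and 911 ± 260 CPM, and all 4 had a log2 fold change above 0, with no unadjusted p under 0.05 in edgeR. That of 7 fibroblast markers was 193 ± 219 CPM and 149 ± 65.9 CPM, with 6 of the 7 above 0. The sums were 407 ± 267 CPM and 435 ± 79.4 CPM for 8 endothelial markers, and 466.4 ± 475 CPM and 448 ± 384 CPM for 7 neuron markers. They were 155 ± 92.1 CPM and 120 ± 32.2 CPM for the macrophage and microglia markers, and 9.33 ± 5.13 CPM and 15.0 ± 15.0 CPM for the T cell markers. Of the 9 oligodendrocyte lineage markers, 5 had a log2 fold change below 0 in the edgeR fit without French bulldog 6 (median -0.06). At an unadjusted p under 0.05 in that fit, 1 of these 9 and 1 of 3 T cell markers tested were lower. At that limit, 644 of 16403 genes were lower, and no marker of the other lists passed. The ranges of the groups overlapped for each of the 9 lists. Their part in the level of ITGA9 was not tested.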

How the data were processed

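The authors extracted RNA from paraffin scrolls, prepared libraries with a stranded total RNA kit that removes ribosomal RNA, trimmed paired-end reads (Trimmomatic 0.33), mapped them (HISAT2 2.1.0) and counted them per gene (featureCounts). They deposited raw counts per gene, without normalization. How strand and multi-mapping reads were handled is not given in the sources used here, and reads shared with an antisense gene or a paralog could move a level. Gene lengths were not used, so levels were not compared between genes.

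Groups were taken from the breed in the labels. Genes were kept by filterByExpr, scaled by TMM and fitted with edgeR 4.0.16 in R 4.3.3 (quasi-likelihood F test, robust, without covariates). Two-sided p-values were adjusted over all genes tested after Benjamini and Hochberg, and 0.05 was the threshold. The SE was derived from the log2 fold change and its F statistic, and 95% intervals are the log2 fold change ± 1.96 SE. The p-values measure only the spread between libraries. Alternatives were DESeq2 1.42.0, limma-voom (limma 3.58.1), other normalizations and filters in edgeR, a replicate block, and other sets of libraries. Log2 CPM used a prior count of 2. Correlations were tested by 100000 two-sided permutations within breeds. The code was tested on simulated data.

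Genes named were all members, up to 5 genes per pathway list with the smallest unadjusted p under 0.05, and, among genes with a symbol, the 5 most and 3 least like ITGA9, of which 1 is not reported here. The neighbours and a few ligands were added after seeing the data. The members and lists were chosen with earlier results of these data known. VTN appeared in 2 rows and was left out. Sequences were not printed, and no positions are given because the RefSeq assembly used for gene order differs from that of the counts.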

Additional observations from a re-analysis of the deposited data

Results flagged for a closer look

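ITGB5 in boxer 1 was far below the other boxers. Its level of 38.5 CPM was the lowest of the 4 boxers, whose others lay between 50.9 and 52.6 CPM, and its gap to the nearest boxer was 0.877 of the range of the group, above the critical value of 0.829. It lay within the range of the Boston terriers and of the French bulldogs. Chance gives about 1 such value in 20 groups, and 18 groups were examined.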

How the results depend on the processing

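None of the 8 members tested passed the adjusted threshold in French bulldogs against the comparison group or in boxers against Boston terriers, under any alternative run. ITGA9 was lower in French bulldogs under all of them, with a log2 fold change of -1.16 against boxers alone and of -2.17 to -1.63 with each library left out in turn. The number of the 8 with an unadjusted p under 0.05, which was 2, was 1 with DESeq2 size factors, with no filter on low counts, and with French bulldogs 2 and 8 summed. It was 0 against boxers alone, against library series 18 to 21, and with French bulldog 6 left out and 2 and 8 summed, and 0 to 2 with each library left out (0 without Boston terrier 6). Between boxers and Boston terriers it was 0 rather than 1 with the library series as a covariate, and 0 to 2 with each library left out. The numbers in the titles did not pair the libraries, since same-numbered libraries correlated between -0.50 and 0.21. With a replicate block over the numbers 1 to 7 the count was 1, without the block over the same libraries 0, and the log2 fold change of ITGA9 was -1.61 and -1.90.

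The following log2 fold changes turned direction. ITGA4 was -0.15 by limma-voom and -0.10 with French bulldog 6 left out and 2 and 8 summed, and -0.19 to 0.53 with each library left out. ITGB8 was -0.13 by limma-voom, -0.34 with the replicate block and -0.11 without the block over the numbers 1 to 7. Against Boston terriers alone ITGA6 was 0.11, ITGA7 0.13 and ITGB5 0.020, and against library series 1 to 3 ITGA6 was 0.020. Between boxers and Boston terriers, ITGB1 ran from -0.24 to 0.20 and ITGB8 from -0.26 to 0.27 with each library left out. Without French bulldog 6, the other integrin subunits higher at an unadjusted p under 0.05 numbered 0, and among the other integrin ligands 1 was higher and 1 lower. HSPBAP1 had r = 0.069 with ITGA9 without centring on breed means. The cause was not tested in these cases. ITGB3 had the fewest counts of the members, and the boxer and Boston terrier groups hold 4 and 3 libraries. The fit without the block over the numbers 1 to 7, and that with French bulldog 6 left out and 2 and 8 summed, were added after seeing the data.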
